A study of Homo sapiens with 6 samples.

Results

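The genes described here encode neural cell adhesion molecules of the L1, NCAM and contactin families. They are the 4 L1 family genes L1CAM, CHL1, NRCAM and NFASC, the NCAM genes NCAM1 and NCAM2, the contactin genes CNTN1 and CNTN2 with the contactin-associated gene CNTNAP1, and the related gene ALCAM. These 10 genes were taken by symbol from the 16832 genes listed in the deposited tables, and all 10 are listed. The set was selected on FPKM differences between SLCDS and control already seen in these same libraries, L1CAM above all, so its values in that comparison are a description and carry no test. Expression was measured by RNA sequencing of total RNA from U251, an established human glioma cell line whose genotype is labelled WT in every sample. The 3 SLCDS libraries came from cells incubated for 18 days in SLCDS, a small-molecule combination whose make-up is not labelled, and the 3 control libraries from cells that had received PBS. How long the PBS cells were cultured is not labelled, so an effect of SLCDS and one of time in culture cannot be told apart. The labels do not say whether replicates came from separate cultures, so p-values measure the spread between these libraries, which may be technical.

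Adhesion molecules of the immunoglobulin superfamily hold neural cells together and guide growing axons. L1 family proteins cross the membrane once, bind one another or integrins outside the cell, and attach to the spectrin skeleton through ankyrin inside it. NCAM1 is the main carrier of polysialic acid in the nervous system, and contactins are anchored by a lipid and act in cis with L1 family and contactin-associated proteins, best known from the nodes of myelinated axons. L1CAM is also expressed by many tumours, glioma among them, and NCAM1 by neurons, astrocytes and glioma cells. The series is about conversion of glioma cells towards a neuronal state, so the question here is how far the equipment of these families differs between treated and untreated U251 cells.

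The bases before the annotated starts of 3 L1 family genes are shown because these genes, alike in protein architecture, took different courses: L1CAM and NFASC were higher with SLCDS and NRCAM was not. Each is the stretch of 250 bases before the most upstream start that RefSeq lists on GRCh38.p14, 5′ to 3′ on the gene's strand, with the letters GGGCGG (the GC box, on either strand) in capitals. The L1CAM stretch is chrX:153876015-153876264 on the minus strand, that of NFASC is chr1:204828402-204828651 on the plus strand, and that of NRCAM is chr7:108456437-108456686 on the minus strand.
L1CAM: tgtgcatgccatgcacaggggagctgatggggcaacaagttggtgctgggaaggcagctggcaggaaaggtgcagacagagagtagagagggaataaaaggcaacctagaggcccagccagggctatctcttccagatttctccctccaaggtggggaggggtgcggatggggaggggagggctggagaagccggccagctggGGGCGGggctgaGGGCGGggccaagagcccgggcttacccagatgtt
NFASC: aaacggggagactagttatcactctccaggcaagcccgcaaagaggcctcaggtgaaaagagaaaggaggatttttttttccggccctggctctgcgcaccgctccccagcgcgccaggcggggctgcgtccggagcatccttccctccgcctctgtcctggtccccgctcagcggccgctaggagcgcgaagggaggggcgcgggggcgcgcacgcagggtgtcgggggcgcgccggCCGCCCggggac
NRCAM: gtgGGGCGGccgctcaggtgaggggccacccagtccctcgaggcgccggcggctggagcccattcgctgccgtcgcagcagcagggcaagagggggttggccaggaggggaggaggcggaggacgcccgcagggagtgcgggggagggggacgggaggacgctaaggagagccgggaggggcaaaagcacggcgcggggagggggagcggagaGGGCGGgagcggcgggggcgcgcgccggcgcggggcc
The GC box is present 2 times before L1CAM, 1 time before NFASC and 2 times before NRCAM, and 42.6% of all 35116 promoter windows of this length hold it. The L1CAM stretch holds 5 CpG dinucleotides at a GC content of 62.8%, against 27 at 69.6% for NFASC and 29 at 78.4% for NRCAM, with a median of 11 CpG over all windows. Searched on both strands, the TATA box (TATAAA) is in none of these 3 stretches and in 10.7% of all windows. The same holds for the AP-1 motif (TGANTCA), which is in 6.57% of all windows, the cAMP response element (TGACGTCA) in 1.65%, the E-box (CACGTG) in 6.34% and the EGR motif (GCGTGGGCG) in 0.72%. These are matches of letters only, and which start U251 cells use was not measured.

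Values are FPKM, fragments scaled to transcript length and to the library's depth, so levels can be set side by side between genes. The steps between the deposited values correspond to about 16300000 to 17200000 fragments in each library, and from them the whole number of fragments behind a value could be recovered. Control replicate 3 stood apart from the other libraries: its correlation with control replicates 1 and 2 across the tested genes was 0.9765 and 0.9767, against 0.9969 between those 2. It ran low for long transcripts, with a median of 0.29 below the mean of control replicates 1 and 2 on the log2(FPKM + 1) scale over the 3858 tested genes whose longest coding transcript has at least 4500 nucleotides. All 10 adhesion genes have transcripts of that kind, from 4701 nucleotides for ALCAM to 10333 for NFASC, and the tested ones all read lower in control replicate 3 than in the other controls. The comparisons of these genes are therefore given with and without this library. The plot of control replicate 3 by transcript length sets these genes beside all others.

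**Figure D1:**
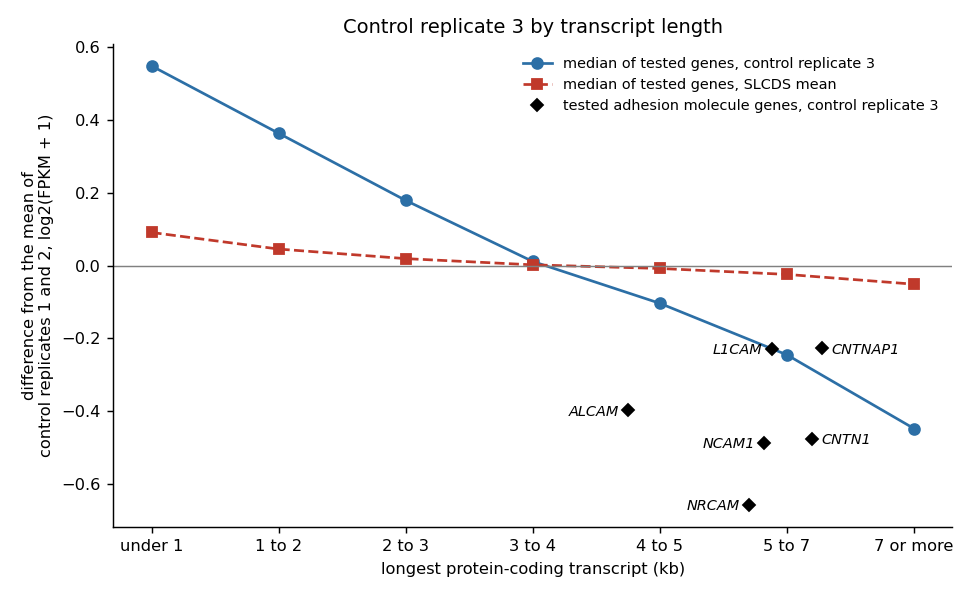
Difference of control replicate 3 (blue line) and of the mean of the SLCDS libraries (red dashed line) from the mean of control replicates 1 and 2, as the median over tested genes in 7 classes of transcript length on the log2(FPKM + 1) scale. Black diamonds are the 6 tested adhesion genes in control replicate 3, placed sideways within their length class only so that they can be told apart. The blue line falls from 0.55 in the shortest class to -0.45 in the longest, while the red one stays between 0.09 and -0.05.

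L1CAM, the founding member of its family, had the largest difference of the 10 genes. It stood at 5.14, 5.23 and 5.81 FPKM in SLCDS replicates 1 to 3, which are 451, 451 and 520 fragments. In control replicates 1 to 3 it stood at 0.601, 0.673 and 0.396 FPKM, or 51, 57 and 35 fragments. Every SLCDS library lay far above every control library, and control replicate 3 was the lowest of the controls. The ratio of the mean FPKM was 9.70, and 8.47 without control replicate 3. On the log2(FPKM + 1) scale the fold change was 2.04 (SE 0.096, n = 3 and 3), and by voom on the recovered fragments, where 1 FPKM is not added, it was 3.30 (SE 0.19). L1CAM reached 1 FPKM, the minimum for a gene to be tested, only in the SLCDS libraries, so it could enter the test only by being high there.

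NFASC encodes neurofascin, the L1 family protein of the axon initial segment and the node. It moved the same way at a lower level. It stood at 0.414, 0.356 and 0.400 FPKM with SLCDS (78, 66 and 77 fragments) and at 0.0932, 0.104 and 0.126 FPKM in the controls (17, 19 and 24 fragments). The groups did not overlap, and unlike L1CAM the highest control value was that of control replicate 3. Summed over libraries these are 221 fragments with SLCDS (95% Poisson interval 193 to 252) against 60 in control (45.8 to 77.2), an interval that covers counting error only. The ratio of mean FPKM was 3.61, and 3.95 without control replicate 3. The gene lay under the minimum of 1 FPKM in every library and was tested only in the fit without that minimum, where its log2 fold change was 0.33 (SE 0.027).

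NRCAM, a partner of ankyrin and contactins on growing axons, was the L1 family gene that U251 cells expressed most. Its FPKM was 44.5, 47.2 and 45.3 with SLCDS and 47.5, 47.6 and 29.8 in control. Control replicate 3 was the only library far from the rest, and the other 5 lay between 44.5 and 47.6 FPKM. Among those 5 the 3 SLCDS values were the lowest. With all 6 libraries the log2 fold change was 0.16 (SE 0.18), and without control replicate 3 it was -0.06 (SE 0.042). CHL1, the close homologue of L1, gave 1 fragment in SLCDS replicate 3 and none in any other library. A count of 0 in the controls allows up to 3.69 fragments over the 3 libraries (95% interval), so no difference in CHL1 could be seen at this depth. As a share of the NRCAM level in the same library, L1CAM made up 11.6%, 11.1% and 12.8% with SLCDS and 1.26%, 1.41% and 1.33% in control. On this scale control replicate 3 lay between the other controls. The NFASC share was 0.930%, 0.754% and 0.885% against 0.196%, 0.219% and 0.424%, with control replicate 3 the highest control.

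NCAM1 went the other way in part of the libraries. Its FPKM was 9.31, 9.64 and 9.92 with SLCDS (1309, 1334 and 1422 fragments) and 14.5, 12.6 and 9.35 in control (1980, 1706 and 1325 fragments). Control replicates 1 and 2 lay above all SLCDS libraries, while control replicate 3 lay inside the SLCDS range, so the groups overlapped. The log2 fold change was -0.29 (SE 0.14) with all libraries, -0.45 (SE 0.067) without control replicate 3 and -0.38 (SE 0.084) with the trend of each library with transcript length and GC content removed. Set against CNTN1, whose transcript is of similar length, NCAM1 had 0.958, 0.938 and 1.02 times its FPKM with SLCDS and 1.38, 1.30 and 1.35 times in control. In that ratio, looked at after the values were seen, the groups did not overlap and control replicate 3 lay between the other controls. It shows an unequal difference of the 2 genes, not which of them differed. NCAM2, the olfactory paralogue, gave 1, 6 and 6 fragments with SLCDS and none in control, at most 0.0179 FPKM.

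CNTN1, the contactin of axons and of the paranode, stood at 9.72, 10.3 and 9.71 FPKM with SLCDS and at 10.5, 9.63 and 6.95 in control. CNTNAP1, whose protein Caspr pairs with it in cis, stood at 9.92, 9.41 and 9.56 FPKM with SLCDS and at 9.83, 10.5 and 8.55 in control. For both genes the SLCDS values fell within the range of the controls, and control replicate 3 was the lowest library. The log2 fold change of CNTN1 was 0.14 (SE 0.14) with all libraries and -0.02 (SE 0.059) without control replicate 3, and that of CNTNAP1 was 0.0023 (SE 0.089) and -0.07 (SE 0.057). The ratio of CNTN1 to CNTNAP1 lay between 0.980 and 1.09 with SLCDS and between 0.813 and 1.07 in control. CNTN2, the axonal glycoprotein TAG-1, was close to absent, with 9, 6 and 6 fragments with SLCDS and 0, 4 and 0 in control. The summed counts are 21 (95% Poisson interval 13.0 to 32.1) and 4 (1.09 to 10.2), intervals that cover counting error only and not the spread between libraries.

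ALCAM, the activated leukocyte cell adhesion molecule, was the most abundant of the 10 genes in every library. It stood at 66.3, 69.6 and 70.04 FPKM with SLCDS and at 68.2, 69.4 and 51.9 in control. Control replicate 3 alone was low, and the other 5 libraries lay between 66.3 and 70.04 FPKM. The log2 fold change was 0.13 (SE 0.12), and -0.0035 (SE 0.041) without control replicate 3. ALCAM made up 45.1% to 48.5% and NRCAM 27.8% to 31.6% of the summed FPKM of the 10 genes in every library. The L1CAM part of that sum was 3.44% to 3.86% with SLCDS and 0.370% to 0.447% in control, and the NCAM1 part 6.35% to 6.58% and 8.34% to 9.61%.

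**Figure D2:**
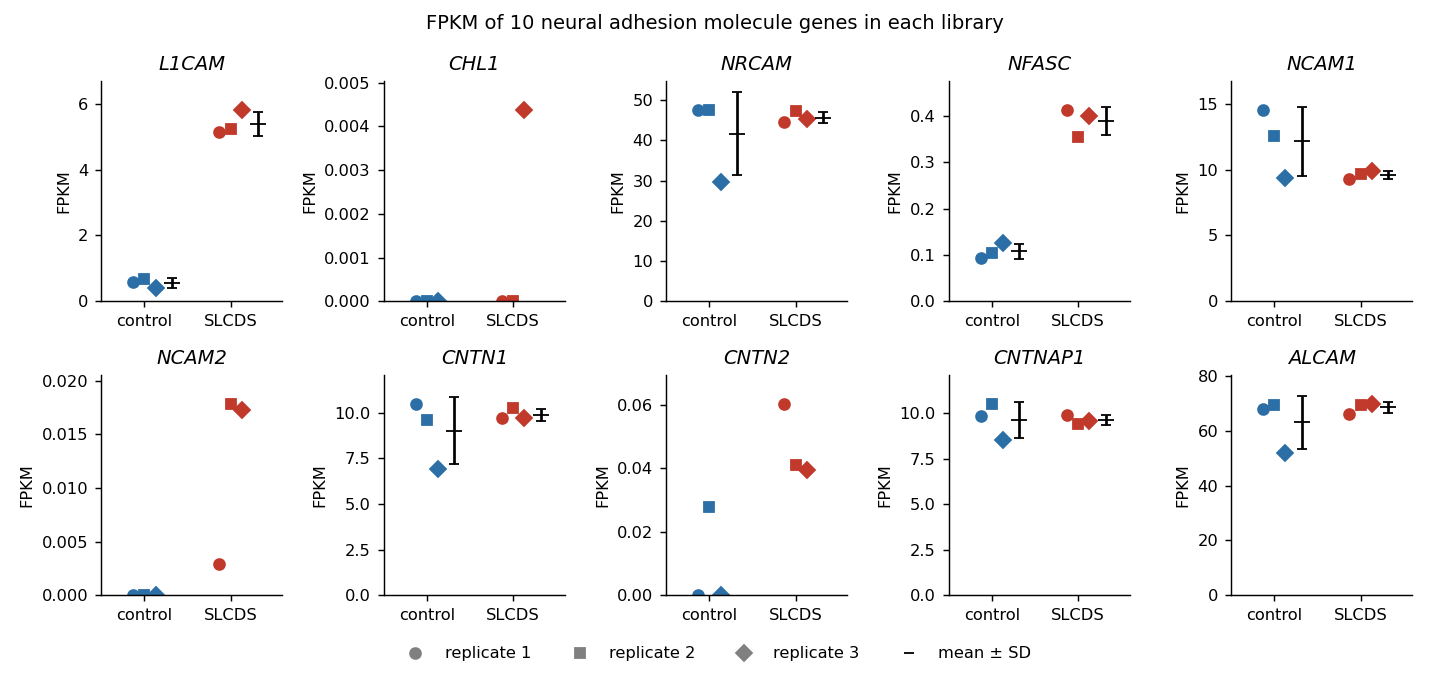
FPKM of each of the 10 adhesion genes in each control (blue) and SLCDS (red) library, on linear axes that start at 0 and differ between panels, with black bars for the mean ± SD (n = 3) of genes above 0 in all libraries. L1CAM and NFASC are separated between the groups, while in NRCAM, CNTN1, CNTNAP1 and ALCAM 1 control library, replicate 3 (diamond), lies below the rest.

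By level, the order in control was ALCAM, NRCAM, NCAM1, CNTNAP1, CNTN1, L1CAM, NFASC and CNTN2, with CHL1 and NCAM2 listed at 0. With SLCDS it was ALCAM, NRCAM, CNTN1, CNTNAP1, NCAM1, L1CAM, NFASC, CNTN2, NCAM2 and CHL1. The ranges of CNTN1, CNTNAP1 and NCAM1 overlapped from neighbour to neighbour in both groups. Within each control library, however, NCAM1 was the highest of these 3 genes. The order of CNTN1 and CNTNAP1 in control, and of all 3 genes with SLCDS, differed between libraries and is not settled. L1CAM kept the sixth place in both groups. In control it was 0.557 ± 0.143 FPKM (SD, n = 3), some way below the 3 genes at about 10 FPKM, and with SLCDS 5.40 ± 0.365 FPKM, within 2-fold of them.

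Of the 10 genes, 4 had SLCDS values that were all above the controls (L1CAM, NFASC, NCAM2 and CNTN2), none had all of them below, and 6 overlapped. Among all listed genes 25.2% were separate, 14.4% of all listed genes being higher and 10.8% lower. In the limma fit over the 11506 genes with at least 1 FPKM in 3 or more libraries, 6 of the 10 were tested, and 1, L1CAM, passed an adjusted p of 0.05, where 6.09% of all genes passed (4.28% higher, 1.82% lower). By voom on recovered fragments L1CAM was again the only one, beside 6.16% of all genes. Without control replicate 3, L1CAM was higher and NCAM1 lower, and 27.7% of all genes passed (16% higher, 11.8% lower). The same 2 passed with the length and GC trend removed, where 18.1% of all genes did (9.33% higher, 8.77% lower). Without the minimum of 1 FPKM, L1CAM and NFASC passed of 10 tested, beside 4.95% of all genes, and with a mean of at least 5 FPKM required, L1CAM was not tested and none of 5 passed. The median log2 fold change of the 6 was 0.13 beside 0.00036 over all tested genes, and -0.04 beside 0.0016 without control replicate 3. As the genes were chosen with this comparison known, nothing is read from these counts.

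**Figure D3:**
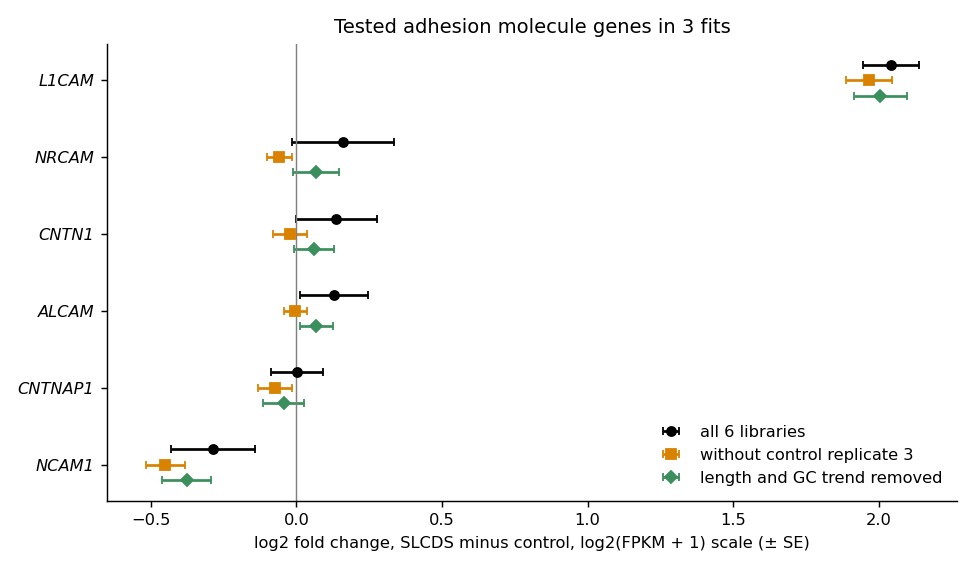
Log2 fold change of SLCDS over control (± SE) on the log2(FPKM + 1) scale for the 6 tested adhesion genes, with all 6 libraries (black), without control replicate 3 (orange) and with each library's length and GC trend removed (green). L1CAM stays between 1.97 and 2.04 in these 3 fits, NCAM1 lies between -0.45 and -0.29, and the other 4 genes lie within 0.16 of 0.

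Markers of cell types that carry these molecules were read beside them. In bulk RNA, more cells of a type and more RNA per cell cannot be told apart. The glioma line's own markers were abundant, at summed FPKM of 2277 to 2361 with SLCDS and 2318 to 2757 in control, and of these 5 genes GFAP, the astrocyte intermediate filament, fell to 135 ± 7.31 FPKM with SLCDS, against 339 ± 23.3 in control (adjusted p = 0.000596 by limma). Without control replicate 3, and also with the length and GC trend removed, GFAP and SOX2 were lower, NES and S100B higher, and VIM did not pass. Of all genes, 27.7% passed without control replicate 3 and 18.1% with the trend removed. Of 9 neuronal markers 4 were tested and none passed in the limma fit with all 6 libraries and no trend removed. TUBB3 stood at 29.5 ± 1.08 FPKM with SLCDS and 39.4 ± 5.12 in control, with every SLCDS value below the controls. MAP2 stood at 14.7 ± 0.485 and 18.5 ± 4.62, and its groups overlapped. The presynaptic genes SNAP25, at 6.24 ± 0.259 and 4.85 ± 0.592 FPKM, and SYP, at 1.08 ± 0.109 and 0.714 ± 0.272, had every SLCDS value above the controls. For SYP the margin was slight, as SLCDS replicates 1 and 2 and control replicate 3 each had 41 fragments. Of all listed genes, 14.4% had every SLCDS value above the controls and 10.8% had every one below. Without control replicate 3, and also with the trend removed, all 4 passed, TUBB3 and MAP2 as lower and SNAP25 and SYP as higher. These calls stand beside the same 27.7% and 18.1% of all genes. SYP, like L1CAM, reached 1 FPKM only in the SLCDS libraries, so it could enter the test only by being high there. The list's summed FPKM, carried mostly by TUBB3 and MAP2, was 52.6 to 53.6 with SLCDS and 64.0 to 64.6 in control. RBFOX3, DCX, SYN1, STMN2 and ELAVL3 lay under 1 FPKM in every library, and among these SYN1 and STMN2 also had every SLCDS value above the controls. For STMN2 these were only 1, 3 and 3 fragments, against none in control. In the fit without the minimum of 1 FPKM, SYN1 alone of the 9 neuronal markers passed, as higher (adjusted p = 0.0452 by limma). Of all genes, 4.95% passed in that fit. The oligodendrocyte lineage markers MBP, SOX10 and MOG lay under 1 FPKM in every library, and MAG was not listed. Of 4 endothelial markers VE-cadherin, CDH5, rose to 4.81 ± 0.438 FPKM, against 1.91 ± 0.634 in control (adjusted p = 0.0106 by limma), with PECAM1, VWF and KDR under 1 FPKM and sums of 4.93 to 5.87 with SLCDS and 2.09 to 3.00 in control. The 4 immune markers summed to 3.59 to 4.75 FPKM with SLCDS and 2.83 to 3.15 in control, nearly all of it CD68, which passed as higher without control replicate 3 and with the trend removed but not with all libraries (adjusted p = 0.0737 by limma), and PTPRC stayed at 0.0485 FPKM or less. The part of these markers in the L1CAM and NCAM1 values was not tested.

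The genes whose products bind, anchor, cleave or modify these molecules were taken from 7 lists with 97 entries, of which 92 are listed and 64 were tested. Of the 64, 8 rose, 3 fell and 53 did not pass, that is 17.2% called, beside 6.09% of all genes. The median log2 fold change of the 64 was 0.043. All 11 kept their call without control replicate 3, where 22 rose and 14 fell in all (56.2%, beside 27.7% of all genes), and with the trend removed, where 14 rose and 10 fell (37.5%, beside 18.1%). Leaving out another library lowered the count of 11 to 4, 3 and 4 (SLCDS replicates 1 to 3) and to 7 and 6 (control replicates 1 and 2). These lists were written with some results of these data known, so the share is a description. Changes given for these genes are log2 fold changes on the log2(FPKM + 1) scale, with mean ± SD of n = 3 where a mean is given.

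Among other immunoglobulin adhesion molecules of neural cells 2 of 9 tested genes rose and 1 fell. SDK1, a synaptic sidekick protein, stood at 11.5, 12.5 and 12.2 FPKM with SLCDS and at 6.18, 6.45 and 4.15 in control (log2 fold change 1.01, SE 0.14; adjusted p = 0.00822 by limma). MCAM, an endothelial and melanoma adhesion molecule, rose to 15.4, 14.3 and 13.6 FPKM, against 9.44, 10.3 and 10.3 in control (change of 0.48, SE 0.078; adjusted p = 0.0132 by limma). CADM1, a synaptic adhesion molecule, fell to 7.46, 8.45 and 8.27 FPKM, against 12.0, 11.5 and 10.2 in control (change of -0.43, SE 0.088; adjusted p = 0.0340 by limma). All 3 genes had separate groups, and SDK1 was lowest in control replicate 3. The call held in 20 of 22 other settings for SDK1, 17 of 22 for MCAM and 14 of 22 for CADM1. Of the other contactin and contactin-associated genes only CNTNAP3 was tested, at 3.66 ± 0.269 and 3.10 ± 0.416 FPKM (adjusted p = 0.378 by limma). Its value is uncertain, as counting can divide fragments between CNTNAP3 and its near copy CNTNAP3B.

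Of the ligands and co-receptors 4 of 16 tested genes rose and none fell. CD24, a small mucin-like partner of L1CAM, stood at 21.0, 20.0 and 21.0 FPKM with SLCDS and at 10.7, 11.4 and 12.2 in control. The groups were far apart, and the log2 fold change was 0.80 (SE 0.073; adjusted p = 0.00131 by limma). The call held in all 22 other settings. GFRA1, which binds GDNF and passes it to NCAM1 or RET, rose to 24.1 ± 0.729 FPKM, against 14.2 ± 2.97 in control (change of 0.74; adjusted p = 0.0267 by limma). ITGB1, the beta chain of the integrins that L1 family proteins bind, rose to 152 ± 2.95 FPKM, against 101 ± 13.6 in control (change of 0.60; adjusted p = 0.0221 by limma). FGFR2, of the growth factor receptors that L1CAM and NCAM1 engage, rose to 5.99 ± 0.222 FPKM, against 3.97 ± 0.372 in control (change of 0.49; adjusted p = 0.0164 by limma). All 4 genes had separate groups, and the calls held in 17 of 22 settings for GFRA1, 16 of 22 for ITGB1 and 16 of 21 for FGFR2. The more abundant FGFR1 did not pass, at 27.8 ± 0.618 FPKM with SLCDS and 28.7 ± 0.337 in control (adjusted p = 0.763 by limma). FGFR3 stood at 4.07 ± 0.232 and 3.41 ± 0.181 FPKM (adjusted p = 0.216 by limma, and 0.0365 without control replicate 3). CD24 is uncertain, as counting can divide its fragments among processed copies elsewhere in the genome.

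Of the membrane skeleton and adaptor genes 1 of 12 fell and none rose. EZR, the ezrin that links membrane proteins to actin, stood at 51.3 ± 0.578 FPKM with SLCDS and 75.7 ± 2.82 in control (change of -0.55, SE 0.066; adjusted p = 0.00366 by limma). The call held in all 22 other settings. Its relative MSN (99.6 ± 1.88 and 103 ± 10.9 FPKM; adjusted p = 0.840 by limma) and the AP-2 subunit gene AP2M1 (317 ± 8.73 and 342 ± 50.5 FPKM; adjusted p = 0.723) did not pass. None of the 9 shedding protease genes passed, among them the gamma-secretase genes NCSTN (72.8 ± 0.262 and 67.1 ± 0.250 FPKM; adjusted p = 0.378 by limma) and APH1A (88.7 ± 4.20 and 92.5 ± 10.9 FPKM; adjusted p = 0.826). In the fit without control replicate 3, 1 of the 12 skeleton genes rose and 7 fell, and 2 of the 9 proteases rose. MSN was among the 7, at a change of -0.14 (adjusted p = 0.0248 by limma).

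None of the 6 tested genes on the list for polysialic acid and the HNK-1 glycan passed with all 6 libraries. Without control replicate 3, 2 of them, B3GAT3 and GNE, were higher. B3GAT1 and B3GAT2, related to B3GAT3, lay under the minimum for testing, at up to 0.0426 and 0.442 FPKM. The HNK-1 glycan itself was not measured, so the B3GAT3 values are not read as bearing on it. CMAS, which activates sialic acid, stood at 21.3 ± 1.41 FPKM with SLCDS and 20.5 ± 1.69 in control (adjusted p = 0.821 by limma), and the glucuronyltransferase gene B3GAT3 at 41.3 ± 2.24 and 41.9 ± 11.1 FPKM (adjusted p = 0.987). Without control replicate 3, where B3GAT3 read highest of all libraries, its change was 0.21 (adjusted p = 0.0179 by limma). GNE, the first enzyme of sialic acid synthesis, stood at 21.7 ± 0.208 FPKM with SLCDS and 18.3 ± 1.13 in control (adjusted p = 0.121 by limma, and 0.0111 without control replicate 3). Among 11 signalling genes 2 rose and 1 fell. FYN, the Src family kinase that acts below NCAM1 and contactins, rose to 63.1 ± 2.75 FPKM, against 48.2 ± 1.95 in control (change of 0.38; adjusted p = 0.0233 by limma). GAP43, a growth cone protein, rose to 2.15 ± 0.268 FPKM, against 1.06 ± 0.199 in control (change of 0.62; adjusted p = 0.0168 by limma). VAV2, a guanine nucleotide exchange factor, fell to 12.4 ± 0.185 FPKM, against 18.5 ± 0.920 in control (change of -0.54; adjusted p = 0.00461 by limma). That call held in all 22 other settings, against 16 of 22 for FYN and 17 of 21 for GAP43.

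**Figure D4:**
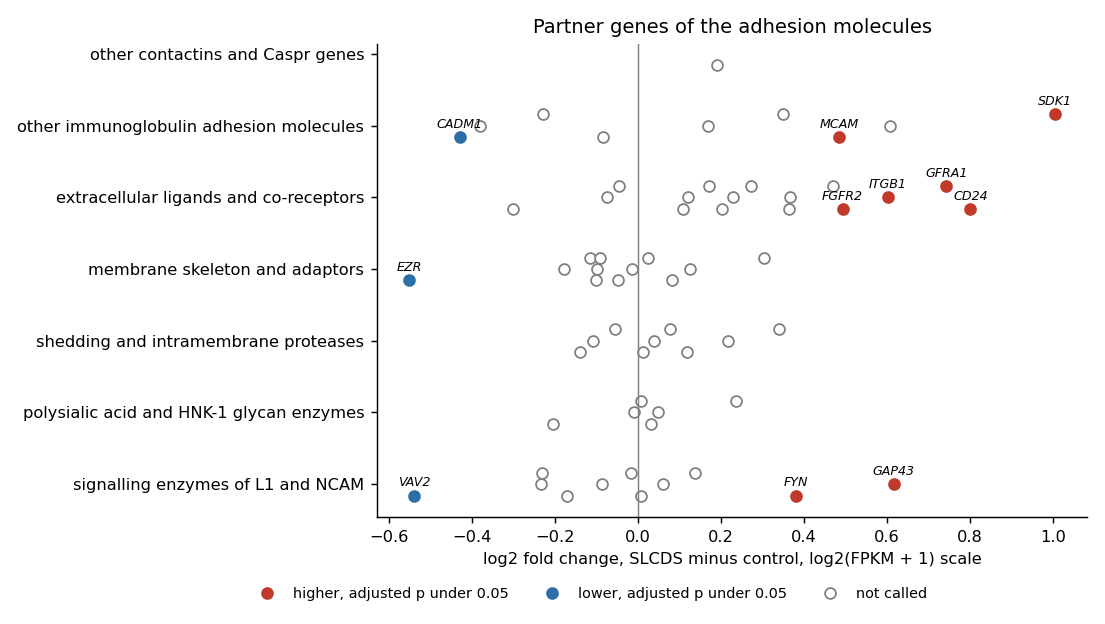
Log2 fold change of SLCDS over control on the log2(FPKM + 1) scale for the 64 tested partner genes, in rows by role; filled points passed an adjusted p of 0.05 (limma, all tested genes) (red higher, blue lower), open points did not, and the vertical spread within a row only separates points. The 8 higher genes lie between 0.38 and 1.01 and the 3 lower ones between -0.55 and -0.43.

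Of the partner genes, 28 are listed but lay under the minimum for testing, and 6 of these were higher in every SLCDS library than in every control and 1 was lower, where 16.7% of all genes under that minimum were separate (11.9% higher, 4.73% lower). Picked from these after the values were seen, ANK3, the ankyrin-G gene whose product anchors L1 family proteins at the axon initial segment, stood at 0.574, 0.631 and 0.603 FPKM with SLCDS (181, 196 and 194 fragments) and at 0.183, 0.184 and 0.0881 FPKM in control (56, 56 and 28 fragments). ANK1, another ankyrin, had 68, 67 and 37 fragments with SLCDS and 35, 30 and 13 in control. The ankyrin gene ANK2, which was tested, was more abundant and did not rise. It stood at 4.34 ± 0.166 FPKM with SLCDS and 4.92 ± 1.46 in control (adjusted p = 0.794 by limma). Its change was -0.33 without control replicate 3 (adjusted p = 0.0089 by limma) and -0.25 with the trend removed (adjusted p = 0.0368 by limma). ST8SIA2, a polysialyltransferase that acts on NCAM1, had 18, 32 and 21 fragments with SLCDS and 6, 2 and 7 in control. GLDN, the gene that was lower, had 2, 2 and 2 fragments with SLCDS and 11, 6 and 4 in control. In the fit without a minimum, the limma adjusted p was 0.00298 for ANK3, 0.0484 for ST8SIA2 and 0.202 for ANK1. The other polysialyltransferase gene, ST8SIA4, was tested and stood at 2.84, 2.94 and 2.71 FPKM with SLCDS and 3.19, 2.72 and 2.37 in control.

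The genes next to the adhesion genes in RefSeq order did not show a difference as large as that of L1CAM on the log2(FPKM + 1) scale. For L1CAM these are PDZD4 and AVPR2, the latter close to 0 in all libraries. PDZD4 stood at 16.8 ± 0.369 FPKM with SLCDS and 14.4 ± 2.20 in control (log2 fold change 0.23, adjusted p = 0.322 by limma). Its change was 0.34 without control replicate 3 (adjusted p = 0.000633 by limma) and 0.23 with the trend removed (adjusted p = 0.0303 by limma). NFASC and CNTN2 are each other's neighbours on chromosome 1, and both were among the 4 genes with separate groups. On their outer sides LRRN2 averaged 0.0412 FPKM with SLCDS and was listed at 0 in control, and TMEM81 stood at 2.94 ± 0.168 and 2.91 ± 0.247 FPKM (adjusted p = 0.963 by limma). Over all 10 genes, 9 of the 19 neighbouring genes were tested. None passed with all libraries and no trend removed, where 6.09% of all genes did. Without control replicate 3, and also with the trend removed, only PDZD4 passed, beside 27.7% and 18.1% of all genes.

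The 5 tested genes whose profile over the 6 libraries, centred on its own mean, lay closest to that of L1CAM were CACNG7, UNC5B, LCNL1, CXCL14 and IGFBP3. Their root mean square differences from L1CAM on the log2(FPKM + 1) scale were 0.10, 0.14, 0.21, 0.21 and 0.22. CXCL14, a chemokine, stood at 5.39, 4.87 and 4.73 FPKM with SLCDS and at 0.656 to 0.874 in control, close to the level of L1CAM itself in both groups. For ALCAM the closest were ADAMTSL1, FBXW2, MEX3A, WAPL and MIA3, at 0.016 to 0.019. Those 5 shared with ALCAM the low value in control replicate 3, and their log2 fold changes went from 0.13 to 0.15 with all libraries to between -0.0023 and 0.021 without it. The genes of both sets were chosen by these profiles, so their likeness follows from the choice.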

How the data were processed

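The authors deposited 1 table per library with linear FPKM for each gene. Per the labels' protocols the kit was VAHTS Universal V6. Aligner, counter and annotation: not given in the sources used here. Mouse builds, GRCm38 and mm10, stand in the submitters' processing notes although the line is human, so no coordinates of measured features are printed.

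SLCDS was compared with control on log2(FPKM + 1), which understates changes of low genes, with limma 3.58.1 in R 4.3.3: variance prior following the mean, 2-sided tests, Benjamini-Hochberg adjustment over the 11506 genes that reached 1 FPKM in at least 3 libraries. No batch is labelled. The fit was tested on simulated data with independent noise, its spread taken without the deviations of control replicate 3 and with no transcript length trend. That test therefore does not cover the departure of control replicate 3. Groups came from the sample titles. Fragments were recovered from the FPKM steps as whole numbers within 0.02 for 16831 of 16832 genes, and voom on these called 709 genes, against 701. Replicate pairs differed beyond counting error (median chi-square 1.03 to 15.4, where counting alone gives 0.455), so none were merged.

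Members and lists were chosen with earlier results of these data known. Named are all 10 members, up to 4 called genes of each list (or the 2 most abundant where fewer than 2 passed), 5 closest profiles, RefSeq neighbours and fixed markers. Part of the marker values is not reported here. Transcript length and GC content came from GENCODE release 29. Promoters of 9 of the 10 genes were found in RefSeq. Alternatives were other pseudocounts (0.1, 0.5), filters, scalings and priors, a replicate block, spline removal of the length and GC trend, and each library left out. Python 3.11.15 with pandas 2.3.3 was used otherwise.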

Additional observations from a re-analysis of the deposited data

How the results depend on the processing

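Over all genes 701 passed (492 higher, 209 lower), 276 to 3191 with 1 library left out, 324 with a mean FPKM of at least 5, 2076 (1070 higher, 1006 lower) with the length and GC trend removed and 1592 with that and a replicate block. Chosen after the data were seen, the trend removed without control replicate 3 gave 3500 and voom on recovered fragments without it 3602. Of the adhesion genes 1 passed, 1 to 2 with 1 library left out, 2 without the filter, with the trend removed (also with the block) and in both added fits without control replicate 3, and 0 with a mean of at least 5. Of the partner genes 11 passed, 3 to 36 with 1 library left out, 24 with the trend removed, 21 with that and the block, 37 and 39 in the added fits. With the replicate block alone 455 genes, 1 adhesion gene and 7 partner genes passed. Same-numbered libraries' deviations from their group means correlated at -0.326, 0.360 and 0.0652. Control replicate 3 stood apart and set most of the control deviations, so these correlations cannot show whether the numbers mark pairs. The labels do not say that they do, so the numbers were not taken as pairs and the block is an alternative only.

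Log2 fold changes that changed sign were all of genes not called with all 6 libraries, and none was called at the changed sign; with 1 library left out these reached up to 0.271 for NRCAM, 0.246 for CNTN1, 0.0631 for CNTNAP1, 0.202 for ALCAM, 0.21 for B3GAT3 and 0.092 for CMAS, and down to -0.162 for AP2M1, -0.136 for MSN and -0.113 for APH1A. Of these values, B3GAT3 at 0.21 and MSN at -0.136, both without control replicate 3, passed (limma, adjusted p 0.0179 and 0.0248). Without control replicate 3, with the trend also removed and by voom, NRCAM stood at -0.0585, -0.0315 and -0.0598 and CNTNAP1 at -0.0736, -0.106 and -0.0809. Without that library and by voom without it, CNTN1 stood at -0.0216 and -0.0241, ALCAM at -0.00355 and -0.00358, AP2M1 at 0.0173 and 0.0174 and APH1A at 0.039 and 0.0397. CNTNAP1 was also at -0.0125 (median of ratios), -0.0195 (quantiles), -0.0441 (trend removed, with or without the block) and -0.0173 (without SLCDS replicate 1). AP2M1 was at 0.0557 (quantiles) and MSN at 0.00834 (without control replicate 1). B3GAT3 was at -0.00776 (median of ratios) and at -0.0353, -0.0649 and -0.12 without SLCDS replicate 1, control replicate 1 and control replicate 2, and CMAS at -0.0027 and -0.0165 without the first 2 of these. The cause of these changes was not tested. L1CAM passed in all 21 other settings in which it was tested, with log2 fold changes of 1.97 to 2.10 when 1 library was left out. The set was chosen on this difference and the settings reuse the same libraries, so that count is a description and carries no test.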
